A study of Mus musculus with 11 samples.

Results

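The enzymes that write and erase DNA methylation were followed through mouse naive extra-embryonic endoderm (nEnd) by 8 genes: the methyltransferases Dnmt1, Dnmt3a and Dnmt3b, the cofactors Uhrf1 and Dnmt3l, and the dioxygenases Tet1, Tet2 and Tet3. They were listed by name, and all 8 were present among the 48952 genes of the bulk table and among the 32285 genes of the single-cell matrices. nEnd is grown on feeder fibroblasts in RACL medium (Activin A, CHIR99021 and LIF) and serves as a culture model of primitive endoderm (PrE). The bulk data were 9 RNA-seq libraries of the untreated line OCT4-mCherry, in which mCherry reports OCT4 protein, sorted into Pdgfra+ cells (surface PDGFRA without reporter), DP cells (both) and Oct4+ cells (reporter without PDGFRA, a de-differentiated, epiblast-like state in the study), with 3 libraries of each. The single-cell data were 2 droplet libraries of Oct4-LOF nEnd (line EPUc), homozygous for an Oct4 allele that 4-hydroxytamoxifen (4OHT) deletes. Cells were seeded from PDGFRA-positive cells and cultured without (-4OHT) or with 4OHT (+4OHT), 1 library each. In the paper's scheme 4OHT was given first, and a further period in normal RACL medium followed before profiling. Both of these libraries carry the same alleles, and no library had 4OHT in cells without them, so the agent and the deletion cannot be told apart. Each design uses 1 reporter or deletion line. The paper calls the bulk libraries biological replicates and does not say whether those of a group came from separate cultures. The p-values measure the spread between these libraries.

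DNMT1 copies methylation onto the new strand after replication, and UHRF1 brings it to hemimethylated DNA. DNMT3A and DNMT3B set methylation de novo, and DNMT3L, which has no catalytic activity of its own, binds and stimulates them. TET proteins oxidise methylcytosine and so start its removal. TET1 and TET2 are the forms best known from pluripotent cells, TET3 is the form of the oocyte and zygote, and the extra-embryonic lineages are known for DNA that is less methylated than that of the epiblast.

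Bulk libraries held 8019631 to 11642571 reads. Lineage markers followed the sort, in CPM (counts scaled by library size). The 9 endoderm markers summed to 33144 to 44134 in Pdgfra+, 22608 to 33404 in DP and 162 to 403 in Oct4+. The 9 epiblast markers summed to 47.8 to 62.1, 289 to 619 and 3519 to 4628 CPM. These lists include Pdgfra and Pou5f1, the genes of the sorted proteins, so the sort itself set part of the sums. Pdgfra averaged 729, 590 and 7.43 CPM and Pou5f1 17.5, 229 and 981 CPM in the same order. The 9 feeder fibroblast markers summed to 1.71 to 15.3, 3.37 to 7.08 and 18.5 to 160 CPM. Of 5 tested, 4 were called higher and 0 lower in Oct4+ than in Pdgfra+ (edgeR adjusted p below 0.05). Of all genes, 31.8% were higher in that comparison. Col1a1 was at 0 to 2.61 CPM in Pdgfra+ and 2.66 to 68.3 in Oct4+, while Fap was at 0 counts in both. The 6 markers of 2-cell-like cells, a rare state of pluripotent cultures, summed to 1.04 to 2.19, 4.49 to 15.8 and 239 to 820 CPM, so that they moved with the Oct4+ population. The part of these other cells in the levels below was not tested, and in sorted bulk RNA fewer cells of a type and less RNA per cell cannot be told apart.

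On GRCm38 the maintenance genes lie at chr9:20907209-20959888 on the minus strand (Dnmt1) and chr17:56303321-56323486 on the plus strand (Uhrf1). Dnmt3a (chr12:3806007-3914443), Dnmt3b (chr2:153649450-153687730) and Dnmt3l (chr10:78041947-78063622) are on the plus strand, and Tet1 (chr10:62804570-62908996), Tet2 (chr3:133463679-133545139) and Tet3 (chr6:83362373-83459084) on the minus strand. All are protein-coding genes. Exons of Dnmt3a, Dnmt3l and Tet2 share 133, 67 and 43 bases with a gene on the opposite strand (Dnmt3aos, Aire and Gm42567), and whether strand was used in the bulk counting is not given in the sources used here, so these bases are a small uncertainty in their counts.

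All 8 members matched the RefSeq table of promoters (GRCm38.p6, 250 bases before to 50 after each start), with 15 starts in all. The promoters printed here are those of the pair with its highest means in DP cells, Dnmt3b and Dnmt3l, and of the TET genes at opposite ends of the sort, Tet1 and Tet3, with each CpG, the site these enzymes act on, in capitals. For Dnmt3l the start with the fewest CpG of its 3 is shown.
Dnmt3b, chr2:153649199-153649498, plus strand: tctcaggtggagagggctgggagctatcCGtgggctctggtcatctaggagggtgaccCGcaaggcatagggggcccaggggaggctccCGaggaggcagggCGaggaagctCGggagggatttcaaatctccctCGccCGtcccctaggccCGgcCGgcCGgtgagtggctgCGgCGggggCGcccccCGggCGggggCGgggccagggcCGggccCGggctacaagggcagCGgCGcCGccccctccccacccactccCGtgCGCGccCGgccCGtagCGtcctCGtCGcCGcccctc
Dnmt3l, chr10:78055085-78055384, plus strand: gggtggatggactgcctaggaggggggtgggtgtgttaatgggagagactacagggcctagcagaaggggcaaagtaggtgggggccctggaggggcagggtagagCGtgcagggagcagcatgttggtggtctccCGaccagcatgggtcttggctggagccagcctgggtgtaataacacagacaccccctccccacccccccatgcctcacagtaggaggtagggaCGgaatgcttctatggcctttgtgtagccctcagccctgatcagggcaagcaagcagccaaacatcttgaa
Tet1, chr10:62887275-62887574, minus strand: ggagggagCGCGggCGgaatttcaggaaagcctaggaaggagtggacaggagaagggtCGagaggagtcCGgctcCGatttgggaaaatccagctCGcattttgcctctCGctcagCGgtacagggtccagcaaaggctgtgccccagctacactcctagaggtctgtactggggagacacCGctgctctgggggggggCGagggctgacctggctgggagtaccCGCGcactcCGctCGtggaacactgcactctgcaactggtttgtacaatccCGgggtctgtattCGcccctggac
Tet3, chr6:83441629-83441928, minus strand: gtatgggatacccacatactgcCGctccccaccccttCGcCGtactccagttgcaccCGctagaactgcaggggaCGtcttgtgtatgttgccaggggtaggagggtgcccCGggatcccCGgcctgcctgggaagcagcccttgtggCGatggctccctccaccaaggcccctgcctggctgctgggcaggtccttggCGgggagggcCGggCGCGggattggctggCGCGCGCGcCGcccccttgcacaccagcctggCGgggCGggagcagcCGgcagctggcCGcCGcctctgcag
The windows of Dnmt3b, Tet1 and Tet3 held 30, 17 and 22 CpG. Dnmt3l had 6, 4 and 3 CpG at its 3 starts, the fewest at the start shown. Among the 32851 promoters of the table the median was 7 CpG, with quartiles at 3 and 20. Fewer CpG than at the 3 Dnmt3l starts were held by 43.6%, 31.4% and 23.3% of all promoters, and 88.3% held fewer than Dnmt3b. Of the other members, Dnmt1 had starts with 33, 12 and 2 CpG, Uhrf1 with 12 and 33, Dnmt3a with 46, 47 and 18, and Tet2 had 57, so that the lowest count was at a start of Dnmt1. The start or starts in use in these cells were not measured.

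The members separated into 3 patterns across the sort. Dnmt1, Uhrf1, Dnmt3a, Tet1 and Tet2 were highest in Oct4+, Tet3 was highest in Pdgfra+ and fell stepwise to Oct4+, and Dnmt3b and Dnmt3l had their highest means in DP. In edgeR's quasi-likelihood test across 14185 genes, a gene was called at a Benjamini-Hochberg adjusted p below 0.05. Between Oct4+ and Pdgfra+, 7 of 8 members were called, 6 higher and 1 lower in Oct4+, where 31.8% of all genes were higher and 31.5% lower. Between DP and Oct4+, 6 were called, 5 lower and 1 higher in DP, where 27.9% of all genes were lower and 28.3% higher. Between DP and Pdgfra+, 2 were called, Dnmt3l higher and Tet3 lower in DP, where 4.62% of all genes were higher and 2.26% lower. Libraries did not overlap for 7, 6 and 4 members in these comparisons, against 69.3%, 62.6% and 34.2% of all genes. The median log2 fold change over the members was 1.94 for Oct4+ against Pdgfra+, -1.17 for DP against Oct4+ and 0.60 for DP against Pdgfra+, and over all genes it was 0.01, -0.04 and 0.02. The comparisons share libraries and are not independent of each other.

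**Figure D1:**
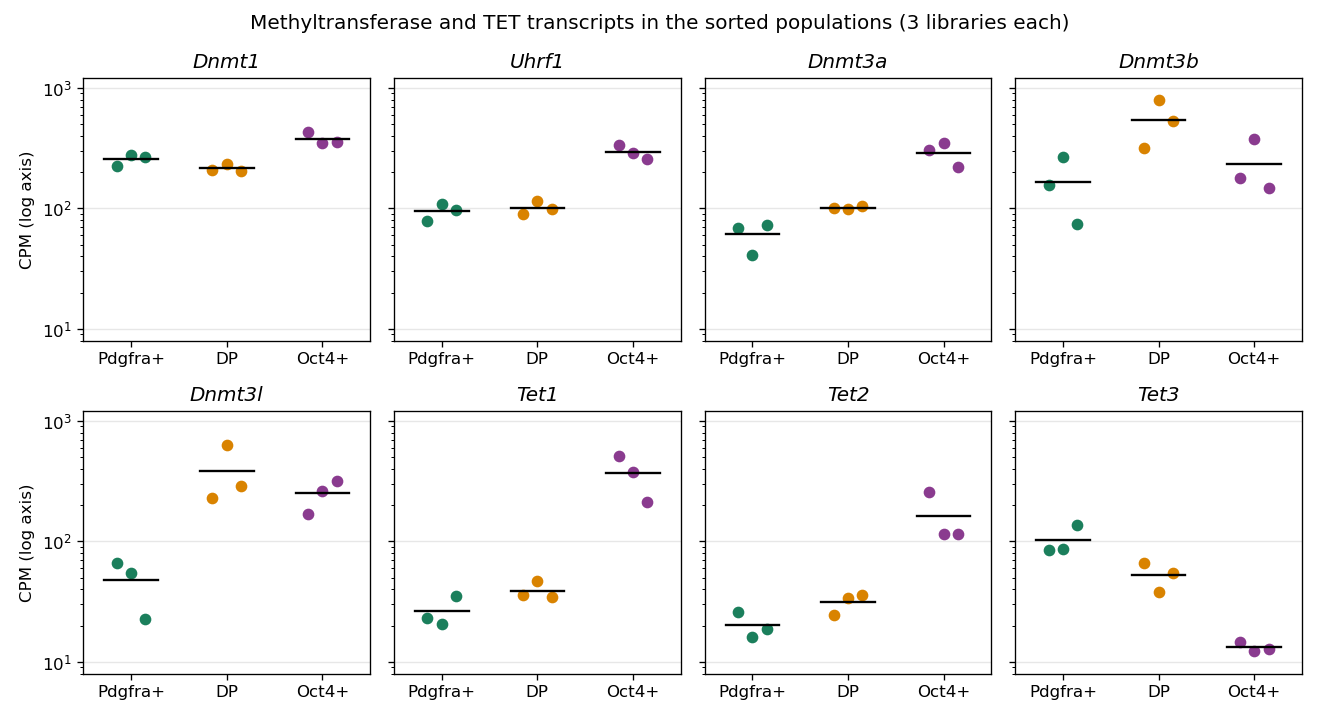
CPM (log axis) of each member in the 3 libraries of each sorted population, with replicates 1 to 3 from left to right in each population and the mean as a line. Tet1 and Tet2 stand apart in Oct4+, Tet3 runs the other way, and Dnmt3b and Dnmt3l have their highest means in DP.

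Of the maintenance pair, Dnmt1 was at 223, 279 and 266 CPM in the Pdgfra+ libraries, 210, 234 and 204 in DP and 429, 350 and 359 in Oct4+. Every Oct4+ library lay above the other 6, which overlapped. Dnmt1 was higher in Oct4+ than in Pdgfra+ by a log2 difference of 0.57 (SE 0.14, edgeR adjusted p 0.00438) and lower in DP than in Oct4+ by -0.81 (SE 0.14, edgeR adjusted p 0.000696). DP and Pdgfra+ differed by -0.24 (95% interval -0.55 to 0.06, edgeR adjusted p 0.292), which did not pass. Uhrf1 was at 78.2, 109 and 96.9 CPM in Pdgfra+, 90.1, 115 and 98.7 in DP and 339, 289 and 255 in Oct4+. Again the Oct4+ libraries stood above all others, while DP and Pdgfra+ interleaved. Uhrf1 rose by 1.63 in Oct4+ against Pdgfra+ (SE 0.17, edgeR adjusted p 2.74e-05) and was -1.54 in DP against Oct4+ (SE 0.17, edgeR adjusted p 5.21e-05), with 0.09 between DP and Pdgfra+ (95% interval -0.28 to 0.46, edgeR adjusted p 0.760). Both genes are known to be transcribed with replication, and 16 of 20 S phase genes were also called higher and 1 lower in Oct4+ than in Pdgfra+. Their summed level was 1694 to 2136 CPM in Pdgfra+, 1874 to 2526 in DP and 3762 to 4137 in Oct4+, and the part of cell cycle in the levels of Dnmt1 and Uhrf1 was not tested in bulk.

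Among the de novo enzymes, Dnmt3a was at 69.3, 41.3 and 73.5 CPM in Pdgfra+, 101, 98.9 and 104 in DP and 307, 347 and 219 in Oct4+. The populations did not overlap in any pair. Dnmt3a rose by a log2 difference of 2.25 in Oct4+ against Pdgfra+ (SE 0.23, edgeR adjusted p 2.93e-05) and was -1.52 in DP against Oct4+ (SE 0.23, edgeR adjusted p 0.00035). The step from Pdgfra+ to DP was 0.72 (SE 0.23, edgeR adjusted p 0.0838). Same-numbered DP and Pdgfra+ libraries deviated together in these counts, while the labels give replicate numbers and no pairing. With a replicate block on that pairing, read from these same counts, this step was 0.78 and was called (edgeR adjusted p 0.0282). The call thus varied with the fit, and the main fit did not make it. Of the fits without a block, some called more members between DP and Pdgfra+ than the main fit and some fewer.

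Dnmt3b, the enzyme most associated with the early post-implantation embryo, was at 156, 265 and 74.2 CPM in Pdgfra+, 315, 789 and 531 in DP and 178, 375 and 147 in Oct4+. The 3 DP libraries lay above the 3 Pdgfra+ libraries, DP overlapped Oct4+, and replicate 2 was the highest of its population in all 3. The mean was 165 ± 95.5 CPM in Pdgfra+, 545 ± 237 in DP and 233 ± 124 in Oct4+ (SD, n = 3). DP exceeded Pdgfra+ by 1.72 on the log2 scale (SE 0.51, edgeR adjusted p 0.0690), which did not pass. With the replicate block, a pairing read from these same counts, the difference was 1.81 and was called (edgeR adjusted p 0.0221). Against Oct4+ the DP difference was 1.22 (SE 0.50, edgeR adjusted p 0.0585), and Oct4+ against Pdgfra+ gave 0.50 (SE 0.49, edgeR adjusted p 0.400), so that neither passed.

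Dnmt3l was the member with the clearest difference between the PDGFRA-positive populations. It was at 66.0, 54.9 and 22.9 CPM in Pdgfra+, 231, 625 and 286 in DP and 169, 263 and 319 in Oct4+. All DP and all Oct4+ libraries stood above every Pdgfra+ library, and DP and Oct4+ overlapped. DP exceeded Pdgfra+ by a log2 difference of 2.99 (SE 0.48, edgeR adjusted p 0.0138), and Oct4+ exceeded Pdgfra+ by 2.39 (SE 0.47, edgeR adjusted p 0.00132). DP against Oct4+ gave 0.60 (95% interval -0.38 to 1.58, edgeR adjusted p 0.265), which did not pass. Without Pdgfra+ replicate 3, the lowest library, the DP difference was 2.66 and missed the threshold (edgeR adjusted p 0.0516). DP averaged 381 ± 214 CPM and Oct4+ 251 ± 76.1 CPM (SD, n = 3). Epiblast markers were also called higher in DP than in Pdgfra+, for 9 of 9 genes, where 4.62% of all genes were higher. These 9 include Pou5f1, whose protein the sort used. They summed to 289 to 619 CPM in DP and 3519 to 4628 in Oct4+, and their part in the level of Dnmt3l was not tested.

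Tet1 was at 23.1, 20.6 and 35.4 CPM in Pdgfra+, 35.7, 46.8 and 34.6 in DP and 515, 380 and 213 in Oct4+. Tet2 was at 25.8, 16.0 and 18.8 CPM in Pdgfra+, 24.6, 33.6 and 35.7 in DP and 258, 116 and 115 in Oct4+. For both genes every Oct4+ library exceeded every other library, and DP overlapped Pdgfra+. Tet1 had the largest log2 fold change of the members, 3.81 in Oct4+ against Pdgfra+ (SE 0.34, edgeR adjusted p 1.23e-05) and -3.24 in DP against Oct4+ (SE 0.33, edgeR adjusted p 3.57e-05). Tet2 followed with 3.02 (SE 0.34, edgeR adjusted p 4.88e-05) and -2.38 (SE 0.33, edgeR adjusted p 0.000238). Between DP and Pdgfra+ the differences were 0.57 for Tet1 (95% interval -0.14 to 1.27, edgeR adjusted p 0.291) and 0.63 for Tet2 (95% interval -0.10 to 1.37, edgeR adjusted p 0.261), and neither passed.

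Tet3 ran against its family. It was at 85.1, 86.1 and 137 CPM in Pdgfra+, 66.3, 37.9 and 54.8 in DP and 14.6, 12.3 and 12.7 in Oct4+, with no overlap between any pair of populations. Oct4+ was under Pdgfra+ by a log2 difference of -2.96 (SE 0.26, edgeR adjusted p 1.13e-05), and DP was above Oct4+ by 2.00 (SE 0.25, edgeR adjusted p 0.00013). DP was under Pdgfra+ by -0.96 (SE 0.24, edgeR adjusted p 0.0446), and 0.0266 with the replicate block. That last call lies close to the threshold. It was lost without Pdgfra+ replicates 1, 2 or 3, DP replicates 2 or 3, or Oct4+ replicates 1 or 2 (edgeR adjusted p 0.0545 to 0.162, log2 fold change -1.08 to -0.69).

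**Figure D2:**
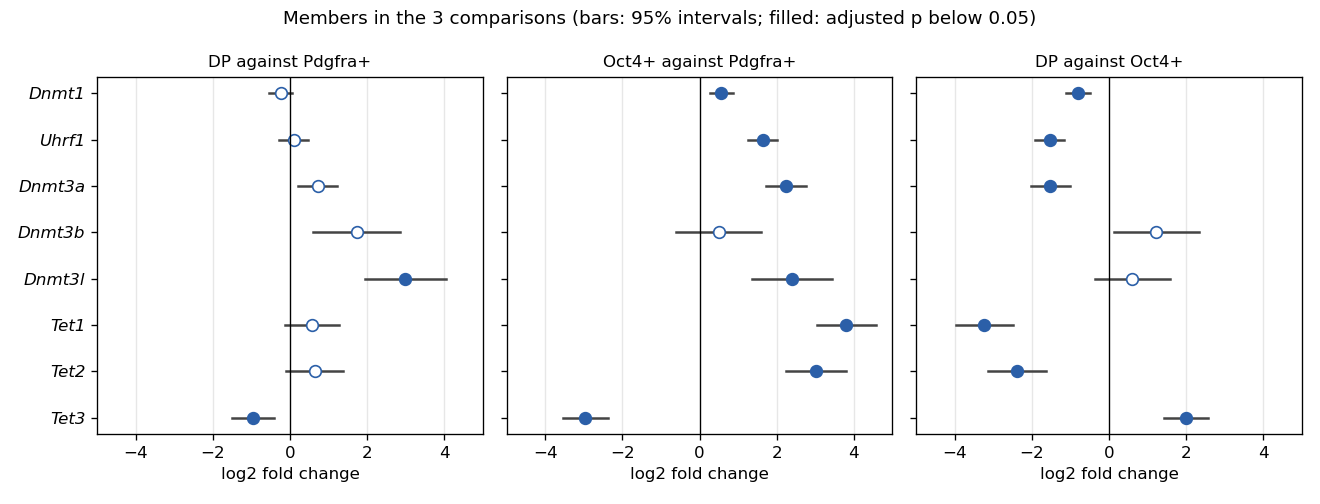
Log2 fold change of the members in the 3 comparisons of sorted populations, with 95% intervals from edgeR as bars and filled points where the adjusted p was below 0.05. In DP against Pdgfra+ only Dnmt3l and Tet3 are filled, and in Oct4+ against Pdgfra+ all but Dnmt3b.

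Per length (RPKM over merged exons), the TET transcripts changed their leading form across the sort. Tet3 made up 67.6% ± 4.24 of the summed RPKM of the 3 TET genes in Pdgfra+, 41.8% ± 10.2 in DP and 2.54% ± 0.93 in Oct4+ (SD, n = 3). Tet1 made up 18.7% ± 0.90, 33.6% ± 6.92 and 69.4% ± 6.20 in the same order, and the libraries of the 3 populations did not overlap for either gene. Within the Dnmt3 genes, Dnmt3l took 31.0% ± 7.08 of the summed RPKM in Pdgfra+, 52.1% ± 5.16 in DP and 57.2% ± 12.8 in Oct4+, with Pdgfra+ under both others and DP overlapping Oct4+. Dnmt3b took 59.9% ± 9.88, 45.0% ± 4.80 and 30.4% ± 10.6, and Dnmt3a stayed the smallest share at 9.12% ± 6.77, 2.94% ± 1.29 and 12.4% ± 4.05. These shares rest on the merged length of all annotated exons, 16642 bases for Dnmt3a and 2988 for Dnmt3l, which can understate genes with long or alternative exons.

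**Figure D3:**
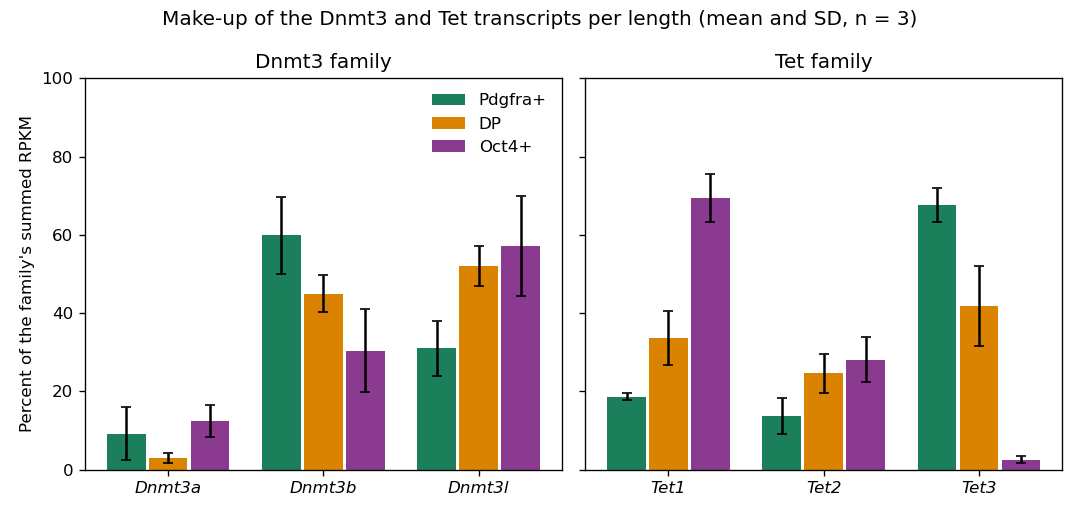
Share of each gene in the summed RPKM of its family by population, as mean and SD over 3 libraries. Tet3 leads in Pdgfra+ and Tet1 in Oct4+, and the share of Dnmt3l is lowest in Pdgfra+.

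The genes that partner or oppose these enzymes were followed in 6 lists, of which 35 genes were tested. Between DP and Pdgfra+, 1 was called higher and 1 lower in DP, where 4.62% of all genes were higher and 2.26% lower. The gene called higher was Prdm14, which represses de novo methyltransferases in naive pluripotent cells, at 2.56 CPM in DP and 0.299 in Pdgfra+ (log2 fold change 3.10, SE 0.79, edgeR adjusted p 0.0468). With the replicate block 5 were called. Between Oct4+ and Pdgfra+, 16 were higher and 10 lower in Oct4+, where 31.8% of all genes were higher and 31.5% lower. Between DP and Oct4+, 8 were higher and 16 lower in DP, where 28.3% of all genes were higher and 27.9% lower. The median log2 fold change of the 35 genes was 0.09 and -0.29 in these comparisons, against 0.01 and -0.04 over all genes. The list counts below, all for Oct4+ against Pdgfra+, stand against the same shares.

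Of the partners of maintenance methylation, 3 of 5 were called higher and 2 lower in Oct4+ than in Pdgfra+. The remodeller Hells rose from 97.1 to 372 CPM (log2 fold change 1.94, SE 0.17, edgeR adjusted p 1.27e-05) and its activator Cdca7 from 32.8 to 148 CPM (2.17, SE 0.28, edgeR adjusted p 0.000103). Dmap1, which binds DNMT1, fell from 44.3 to 22.0 CPM (-1.01, SE 0.19, edgeR adjusted p 0.00102). All 3 genes of methyl donor supply were called higher in Oct4+, with Ahcy, which clears the methylation product S-adenosylhomocysteine, at 33.2 and 74.2 CPM (1.16, SE 0.24, edgeR adjusted p 0.00202). Among 6 regulators of de novo methylation tested, 2 were higher and 2 lower: Prdm14 reached 61.9 CPM in Oct4+ against 0.299 in Pdgfra+ (7.68, SE 0.71), and the histone methyltransferase Ehmt2 fell from 259 to 142 CPM (-0.87, SE 0.12, edgeR adjusted p 0.00015).

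Of the genes that protect methylation at imprinted and repeat loci, 4 of 5 were called higher and 1 lower in Oct4+ than in Pdgfra+. Zfp57, which binds methylated imprinting control regions, rose from 55.1 to 409 CPM (2.89, SE 0.19, edgeR adjusted p 2.58e-06), and its cofactor Trim28 from 526 to 2025 CPM (1.94, SE 0.14, edgeR adjusted p 4.47e-06). Dppa3, which shields maternal methylation in the zygote and hinders UHRF1, was at 0.252 and 6.57 CPM (4.63, SE 0.69, edgeR adjusted p 0.000244), and the second imprint factor Zfp445 fell from 96.7 to 46.8 CPM (-1.05, SE 0.15, edgeR adjusted p 0.000173). The methyl-CpG readers were split, with 2 of 8 higher and 3 lower. Zbtb4 fell from 40.1 to 3.99 CPM (-3.32, SE 0.46, edgeR adjusted p 0.00017). Of 8 partners of demethylation tested, 2 were higher and 2 lower. Cxxc5, of the CXXC family that binds TET2, rose from 15.2 to 41.5 CPM (1.45, SE 0.32, edgeR adjusted p 0.003), and Ogt, the glycosyltransferase that binds TET proteins, fell from 232 to 123 CPM (-0.91, SE 0.19, edgeR adjusted p 0.00219).

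Genes whose profile over the 9 libraries was nearest to each member were sought among 9596 genes by the root mean square difference of centred log2 CPM. The nearest were Nipsnap1 (0.087) and Pds5b (0.088) for Dnmt1, Psip1 (0.053) and Etnk1 (0.10) for Uhrf1, Gadd45a and Cdc42ep3 (0.18 each) for Dnmt3a, and Phf2 (0.18) and Six5 (0.205) for Tet3. Tet1 lay nearest to Zfp423 (0.29) and Tle4 (0.33), and Tet2 to Itpk1 (0.30) and Mtf2 (0.31). Dnmt3b was nearest to Dusp4 (0.36), a phosphatase induced by ERK activity, at 17.1, 86.5 and 25.8 CPM in Pdgfra+, DP and Oct4+, and to Inf2 (0.41). Dnmt3l was nearest to Ppp2r2c (0.30) and to the adhesion gene Jam3 (0.34), at 6.02, 41.2 and 26.7 CPM.

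In the single-cell libraries 5324 of 6896 barcodes (-4OHT) and 6299 of 7283 barcodes (+4OHT) were kept, with medians of 17947 and 12647 UMIs per cell, and 21 barcodes occurred in both libraries. Cells were clustered without the members and without cell cycle genes, and clusters were named by their 2 leading genes and, from markers, as endoderm-like, epiblast-like and so on. The -4OHT library held 1349 endoderm-like and 3720 epiblast-like cells, and the +4OHT library 6034 endoderm-like and 0 epiblast-like cells, which allows a share of up to 3 in 6299. Pou5f1, the deleted gene, was at 40.4 CPM (of summed UMIs) over all -4OHT cells and 2.47 over all +4OHT cells. Within endoderm-like cells it was at 15.1 and 1.75 CPM. Whether the remaining reads lie outside the deleted part is not given in the sources used here. With 1 library per condition there is no test, and the intervals below are exact 95% intervals that cover counting error only.

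Endoderm-like cells did not share 1 level of the de novo enzymes. In the Amn/Cubn cluster, named for the paired receptors of visceral endoderm uptake and made of 761 cells from -4OHT and 5 from +4OHT, Dnmt3l was at 198 CPM (interval 191 to 205) and Dnmt3b at 166 CPM (160 to 173) in -4OHT. In the Car4/Pitx1 cluster of the same library (492 cells), Dnmt3l was at 6.25 CPM (4.45 to 8.55) and Dnmt3b at 7.37 CPM (5.4 to 9.84). The 9 epiblast markers summed to 357 CPM in the Amn/Cubn cluster and 81.1 CPM in the Car4/Pitx1 cluster of that library. Tet3 ran the other way, at 22.3 CPM (20 to 24.9) in the Amn/Cubn cluster and 66.7 CPM (60.4 to 73.4) in the Car4/Pitx1 cluster. Dnmt3a was at 81.5 CPM (77.0 to 86.2) and 20.4 CPM (17.0 to 24.2), and Pou5f1 at 21.1 and 3.05 CPM.

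After thinning each cell to 5000 UMIs, Dnmt3l was seen in 51.8% of 745 Amn/Cubn cells (48.2 to 55.5) and in 2.90% of 482 Car4/Pitx1 cells (1.60 to 4.83) of the -4OHT library, with 16 and 10 shallower cells left out. Unthinned shares were 80.4% and 7.11%, at median depths of 18163 and 12021 UMIs. Feeder fibroblast-like cells, which should lack Dnmt3l, gave 23.3% (9.93 to 42.3) of 30 thinned cells in -4OHT, at a median of 7960 UMIs before thinning, and 0 of 57 cells in +4OHT, which allows up to 2.88 CPM. The Amn/Cubn share was above that of the feeder-like cells of -4OHT, and the Car4/Pitx1 share was below it. Those feeder-like cells were not a clean blank, with Col1a1 seen in 42.6% of all 47 and Gata6 in 51.1%. Their endoderm markers summed to 1392 CPM and their epiblast markers to 330 CPM. Their share therefore cannot show whether the Car4/Pitx1 signal is background. The part of free RNA in these shares was not tested.

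Doublet calls bear on the Amn/Cubn cluster. Scrublet marked 7.31% of its cells, against 3.27% of all -4OHT cells, and none in +4OHT, where the caller has to be counted as not having worked. At a finer resolution, 507 of its cells formed a cluster (505 from -4OHT) with 0 marked cells, and there Dnmt3l was at 209 CPM, Dnmt3b at 136, Dnmt3a at 46.3, Tet1 at 22.4 and Nanog at 5.48 CPM. A further 227 fell, with other cells, in an Amot/Cubn cluster that had 40.1% of its cells marked and was left unnamed. In that cluster without marked cells (175 cells) Dnmt3l was at 179 CPM, Dnmt3b at 255, Dnmt3a at 158 and Tet1 at 51.4 CPM. Without marked cells, Dnmt3l and Dnmt3b thus stood far above their Car4/Pitx1 levels in both parts, while Dnmt3a and Tet1 differed between the parts. With marked cells included, the Amot/Cubn cluster had a median of 25528 UMIs, against 17035 in the finer Amn/Cubn cluster. Whether its unmarked cells hold further doublets was not tested.

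Epiblast-like cells, present in -4OHT only, fell into 2 clusters at different levels of Dnmt3l and Dnmt3a. At the finer resolution 788 -4OHT cells also formed an unnamed Lefty1/Ctnnal1 cluster with Dnmt3l among its leading genes. The values here are those of the main clustering. In the Cdx1/Mylpf cluster (2371 cells) Dnmt3l was at 161 CPM (157 to 164) and Dnmt3a at 52.9 CPM (50.8 to 55.0). In the Calcoco2/Gm40987 cluster (1349 cells) Dnmt3l was at 34.8 CPM (32.6 to 37.0) and Dnmt3a at 122 CPM (118 to 126). Dnmt3b was at 55.4 CPM (53.3 to 57.6) and 61.4 CPM (58.5 to 64.4), under its level in the Amn/Cubn cluster. Tet1 was at 253 CPM (248 to 257) and 333 CPM (327 to 340), and Tet3 at 6.24 CPM (5.55 to 7.0) and 8.80 CPM (7.73 to 9.98). Tet1 thus exceeded Tet3 here, whereas in the Car4/Pitx1 cells of the library Tet3 exceeded Tet1, which stood at 36.2 CPM (31.7 to 41.3).

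Of the smaller clusters, the 2-cell-like cells (109 cells in -4OHT) had the highest level of Dnmt3a of any cluster with at least 100 cells in a library, 177 CPM (158 to 198), with Dnmt1 at 93.0 CPM. Trophectoderm-like cells of the +4OHT library (203 cells) carried Tet1 at 221 CPM (206 to 236), Dnmt3b at 65.1 CPM (57.4 to 73.6) and Dnmt3l at 37.2 CPM (31.4 to 43.7), where all endoderm-like cells of the same library were at 23.5, 8.61 and 1.30 CPM. Their Pou5f1 was at 18.7 CPM and their Tet3 at 40.8 CPM. Beside 167 CPM of the 7 trophectoderm markers, these cells held 318 CPM of the epiblast markers and 2341 CPM of the endoderm markers, against 28.6 and 8274 CPM in endoderm-like cells, and the part of other cells in their levels was not tested.

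**Figure D4:**
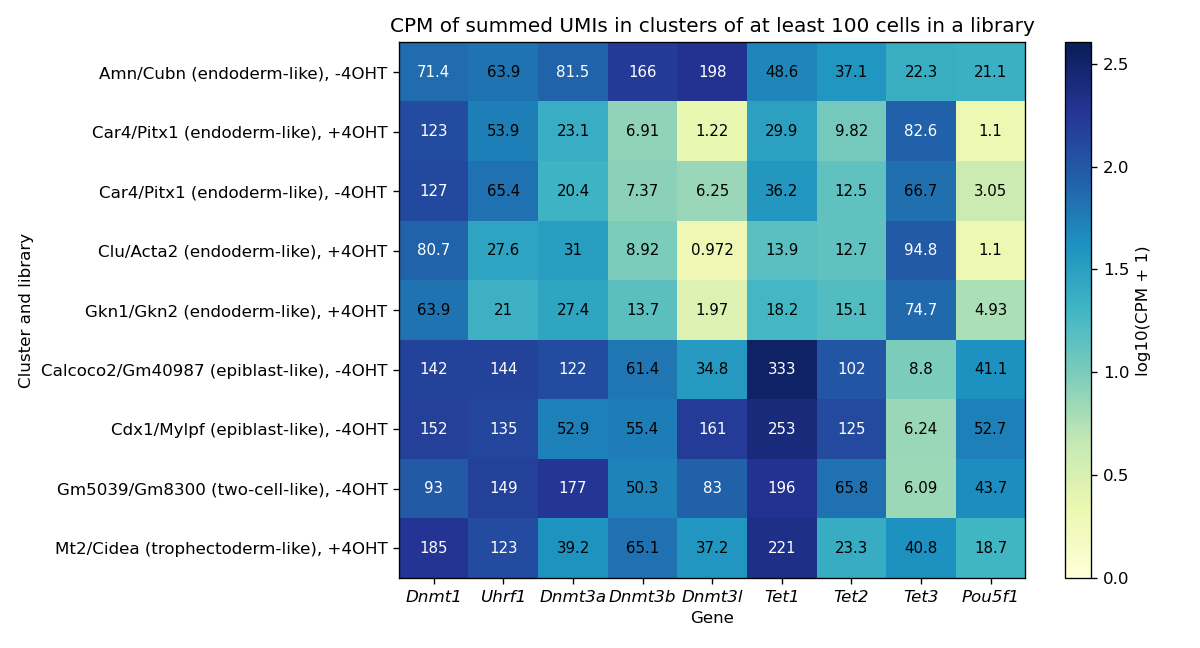
CPM of summed UMIs of the members and Pou5f1 in clusters with at least 100 cells in a library, coloured by log10(CPM + 1). Dnmt3b and Dnmt3l are high in the Amn/Cubn cluster and low in the other endoderm-like clusters, and Tet3 is lowest in the epiblast-like and 2-cell-like clusters.

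The +4OHT and -4OHT libraries were compared within endoderm-like cells. Of 6813 genes at 20 CPM or more in either library, 8.34% were at least 2-fold higher and 3.49% at least 2-fold lower in +4OHT. Of the 8 members, 1 was at least 2-fold higher, 4 were at least 2-fold lower and 3 lay between. With the finer clustering the ratio was 1.87 for Tet3, 0.72 for Dnmt3a and 0.56 for Tet2, so that only Dnmt3b and Dnmt3l lay past 2-fold, and with a stricter filter on cells Tet3 was at 1.88. In the main clustering the median log2 ratio of the 8 members was -1.08, against 0.14 over all 6813 genes. Dnmt3l fell from 134 to 1.30 CPM, 103-fold, and Dnmt3b from 114 to 8.61 CPM, 13.2-fold. Dnmt3a went from 62.2 to 26.0 CPM and Tet2 from 29.0 to 11.5 CPM, and Tet3 from 37.7 to 84.6 CPM, a ratio of 2.24 (2.09 to 2.41). Tet1 had a ratio of 0.54 (0.50 to 0.58), Uhrf1 of 0.66 (0.62 to 0.70) and Dnmt1 of 1.17 (1.11 to 1.23).

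These class-wide ratios set different clusters against each other. Of the -4OHT endoderm-like cells, 761 of 1349 were in the Amn/Cubn cluster and 492 in the Car4/Pitx1 cluster, whereas the +4OHT cells lay in the Car4/Pitx1 (3229), Clu/Acta2 (1479) and Gkn1/Gkn2 (1321) clusters. Within the Car4/Pitx1 cluster alone the median log2 ratio of all 8 members was -0.19. For the 5 members at 20 CPM or more in either library it was -0.04, with 0 of them past 2-fold. Over the 6551 genes at that level the median was 0.05, with 0.56% at least 2-fold higher and 0.66% at least 2-fold lower. Dnmt1 had a ratio of 0.97 (0.90 to 1.05), Dnmt3a of 1.13 (0.94 to 1.37) and Dnmt3b of 0.94 (0.69 to 1.30), each with an interval that includes 1. Uhrf1 was at 0.82 (0.74 to 0.92), Tet1 at 0.83 (0.72 to 0.95), Tet2 at 0.79 (0.62 to 1.01) and Tet3 at 1.24 (1.12 to 1.37). Dnmt3l was at 6.25 CPM in -4OHT and 1.22 in +4OHT, a ratio of 0.20 (0.13 to 0.30). In the same cells Nanog, an epiblast gene, went from 5.77 to 0.13 CPM and Pou5f1 from 3.05 to 1.10 CPM. Epiblast-like cells, whose Dnmt3l was at 114 CPM, were present in the -4OHT library only, and the part of free RNA from them was not tested. In the +4OHT clusters Car4/Pitx1, Clu/Acta2 and Gkn1/Gkn2, Dnmt3l was at 1.22, 0.97 and 1.97 CPM and Dnmt3a at 23.1, 31.0 and 27.4 CPM. Dnmt3b was at 6.91 (6.18 to 7.70), 8.92 (7.76 to 10.2) and 13.7 CPM (11.8 to 15.7), with the intervals of the first and the last apart, while Dnmt1 was at 123, 80.7 and 63.9 CPM and Uhrf1 at 53.9, 27.6 and 21 CPM.

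**Figure D5:**
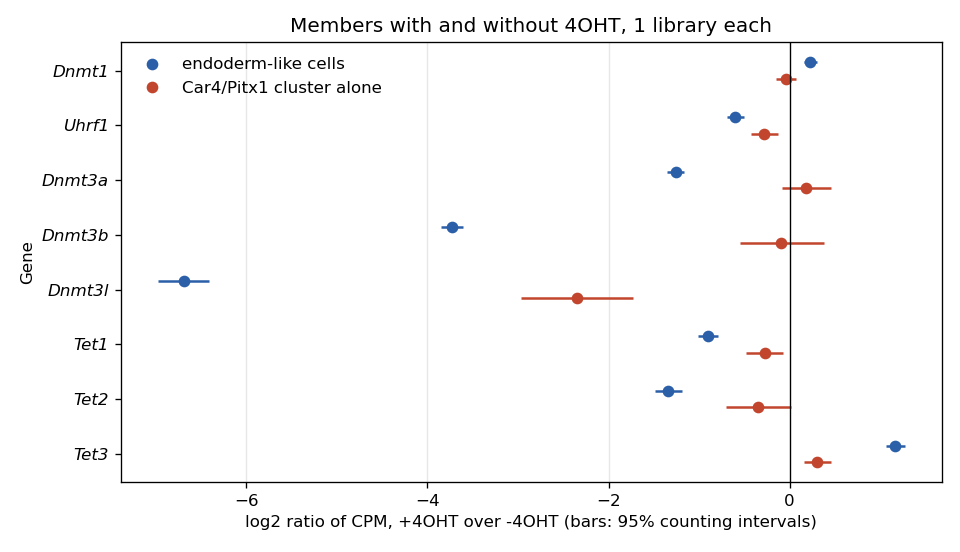
Log2 ratio of CPM between the +4OHT and -4OHT libraries for each member in all endoderm-like cells and in the Car4/Pitx1 cluster alone, with exact 95% counting intervals. Dnmt3b and Dnmt3l are far below 0 over the whole class, and within the 1 cluster Dnmt3l alone stays below -1.

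The maintenance pair was higher in bins of cells with more S phase RNA. Endoderm-like +4OHT cells were split into 4 bins of like size by the share of their UMIs from the 20 S phase genes, which stood at 224, 580, 1159 and 2118 CPM. Dnmt1 was at 31.4, 52.1, 114 and 168 CPM and Uhrf1 at 8.40, 19.2, 42.5 and 76.0 CPM from the lowest to the highest bin. Tet3 was at 89.9, 88.0, 86.9 and 76.7 CPM and Dnmt3b at 7.65, 9.01, 8.60 and 8.92 CPM. Between the outer bins Tet1 went from 15.1 to 27.6 CPM, Tet2 from 15.3 to 8.92 CPM and Dnmt3a from 30.5 to 22.6 CPM. In endoderm-like -4OHT cells Dnmt1 went from 40.3 to 128 CPM, Uhrf1 from 25.4 to 91.4, Tet1 from 28.4 to 50.7, Dnmt3a from 49.4 to 72.2 and Tet3 from 50.7 to 38.8 CPM. Dnmt3b was there at 62.5, 136, 133 and 105 CPM and Dnmt3l at 107, 150, 147 and 124 CPM, both lowest in the lowest bin. In epiblast-like -4OHT cells Uhrf1 went from 83.9 to 205 CPM between the outer bins and Dnmt1 from 120 to 166 CPM, while Tet1 was at 299 and 272 CPM. The S phase sum was 1420 CPM in Car4/Pitx1, 855 in Clu/Acta2 and 718 in Gkn1/Gkn2 cells of +4OHT, the same order as for Dnmt1 and Uhrf1. Median depth of the bins was 9640 to 15595 UMIs in endoderm-like +4OHT cells and 11156 to 18019 in endoderm-like -4OHT cells. In epiblast-like cells it was 17553 to 20661 UMIs, and the bins were not separated by cluster.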

How the data were processed

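The bulk values are unnormalized counts of reads per gene as deposited, from stranded single-end libraries. Aligner, counter, build and annotation were not given in the sources used here, while the single-cell values are deposited UMI counts per gene and barcode, which the authors made with Cell Ranger on mm10. The 35 blank lines of the bulk table held no value and were left out. All 9 pairs of replicates differed beyond sampling noise.

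The members and the gene lists were chosen with earlier results of these data known. Named genes are all 8 members and, per list, at most 4 called genes with the largest change, the 2 nearest genes per member and Pou5f1. Nanog was added after its values were seen. Of the genes this rule names, 1 is not reported here. Tests used edgeR 4.0.16 under R 4.3.3 (filterByExpr, TMM, 1 quasi-likelihood model over all 9 libraries). DESeq2 1.42.0, which the study used, was an alternative. CPM used TMM-scaled library sizes, and RPKM merged GENCODE exons. In simulated counts for 14185 genes the fit was checked before use. Same-numbered DP and Pdgfra+ libraries deviated together (correlations 0.271, 0.477 and 0.321 across genes), so the numbers were taken to pair these groups. The labels do not give this pairing, which was read from the same counts. For the other comparisons correlations were -0.0728 to 0.152.

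Cells with at least 1000 genes and under 10% mitochondrial UMIs were kept. They were clustered in Python 3.11.15 (scanpy 1.11.5, 2000 variable genes, 20 components, 15 neighbours, leidenalg 0.10.2 at resolution 0.5). A cluster was named from the marker list with the highest mean log2 ratio, with at least 3 markers detected at 5 CPM or more. It was left unnamed if that ratio was not positive, if its depth was low, if more markers of another list led it, or if most of its cells were marked as doublets by Scrublet. Marked doublets were kept in the main values.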

Additional observations from a re-analysis of the deposited data

How the results depend on the processing

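Counts of called members kept within 1.5 times of 6 (DP against Oct4+) and 7 (Oct4+ against Pdgfra+) in every alternative run. Against Pdgfra+, DP gave 2 members and 2 pathway genes. DESeq2 gave 4 and 5, no filter on low counts 4 and 4, the stricter filter 1 and 1, the 6 libraries alone 1 member, a required log2 fold change above 1.5 gave 1 and 1, and leaving out 1 library 0 to 3 and 0 to 5. The replicate block gave 4 and 5 on 6 libraries and 4 pathway genes on 9. With the fold change requirement 7 pathway genes each remained past both criteria in DP against Oct4+ and Oct4+ against Pdgfra+. In these unpaired comparisons the replicate block on 6 libraries called Dnmt3b as well (edgeR adjusted p 0.00496 and 0.0338). DESeq2 also called Dnmt3b in DP against Oct4+ (adjusted p 0.0335). Uhrf1 in DP against Pdgfra+ ran from -0.027 to 0.206 over the fits without 1 library, below 0 without Pdgfra+ replicate 1 or DP replicate 2, and Dnmt3b in Oct4+ against Pdgfra+ turned to -0.028 without Oct4+ replicate 2, none of them called. The stricter filter moved the median log2 fold change of all genes by -0.10 (DP against Oct4+) and 0.14 (Oct4+ against Pdgfra+).

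In endoderm-like cells the median log2 ratio of the members moved from -1.08 to -0.78 without marked doublets, -2.08 without classes and -0.43 at resolution 1.0. Chosen after seeing the data, the Car4/Pitx1 cluster alone gave -0.19, and leaving out the Amn/Cubn cluster -0.17. Dnmt1 (0.23) turned to -0.35 without classes, -0.043 in the Car4/Pitx1 cluster and -0.21 without the Amn/Cubn cluster. Dnmt3a turned to 0.18 in both of the latter, and Dnmt3b to 0.12 without the Amn/Cubn cluster. Apart from the named cases, causes were not tested. In simulated bulk counts, small fold changes were recovered less often than large ones, and in cells depth limits values near 1 CPM.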
